A study of Mus musculus with 6 samples.

Results

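A set of 10 genes of eicosanoid and platelet-activating factor metabolism were followed in ribosome-bound RNA from the mouse spinal cord injury site, at 3 and 7 days after injury. The members were chosen by name: Pla2g4a, Ptgs1, Ptgs2, Ptges, Tbxas1, Alox5, Alox5ap, Lta4h, Ltc4s and Pla2g7. Each has a row among the 13940 gene symbols of the deposited table, and 9 of them could be tested. All 6 libraries came from LysMCre:Rplfl/fl > CD45.1 chimeras, labelled as strain CD45.1, which had received a contusion at T8; 3 libraries were made at 3 days and 3 at 7 days. In such chimeras LysM-Cre, driven from the lysozyme locus that is active in macrophages, monocytes and neutrophils, switches on an epitope tag on a ribosomal protein in the donor-derived cells, and the tagged ribosomes are then precipitated (RiboTag). Host cells carry no tag. There was no uninjured cord and no unprecipitated RNA, and the labels do not give the age of the mice or say whether a library came from 1 animal or from several. The p-values therefore measure the spread between these libraries, which may be technical.

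Eicosanoids are signalling lipids made from arachidonic acid. The cytosolic phospholipase Pla2g4a frees arachidonic acid from membranes, and the cyclooxygenases Ptgs1 and Ptgs2 turn it into prostaglandin H2, from which Ptges makes prostaglandin E2 and Tbxas1 makes thromboxane A2. On the other branch, Alox5 with its membrane partner Alox5ap makes leukotriene A4, which Lta4h turns into leukotriene B4, an attractant of neutrophils, and Ltc4s into leukotriene C4. Pla2g7 encodes a secreted enzyme of another kind, the platelet-activating factor acetylhydrolase, which inactivates platelet-activating factor and cleaves oxidised phospholipids.

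Between 3 and 7 days the members did not move together. Of the 9 tested, Pla2g7 and Tbxas1 rose and Ptgs2, Ltc4s, Alox5 and Alox5ap fell, while Ptgs1, Pla2g4a and Ptges did not pass the test. The test was limma on log2(FPKM + 1), with Benjamini-Hochberg adjustment over 13042 genes and a call at an adjusted p of 0.05 or less. FPKM counts fragments relative to transcript length and to the mapped fragments of the library, so that levels of different genes can be compared. Of all genes tested, 18.8% were called higher and 20.3% lower, or 39.1% in either direction, beside 2 and 4 of the 9 members. The members had a median change of -0.24 and all tested genes one of -0.038 on the log2 scale. All 7-day libraries lay above or below all 3-day libraries in 6 of the 9, as they did in 55.4% of all tested genes (26.8% above and 28.6% below). In the authors' deposited table, Ptgs2, Alox5, Alox5ap, Tbxas1 and Pla2g7, which are 5 of the 9, had a q-value of 0.05 or less, beside 38.4% of all tested genes. The RNA was precipitated with ribosomes from many cells at once, and no unprecipitated RNA was measured. Fewer cells of a type, less RNA per cell and less binding of a transcript to ribosomes therefore cannot be told apart. Nor can RNA carried along from untagged cells. This holds for every value below.

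**Figure D1:**
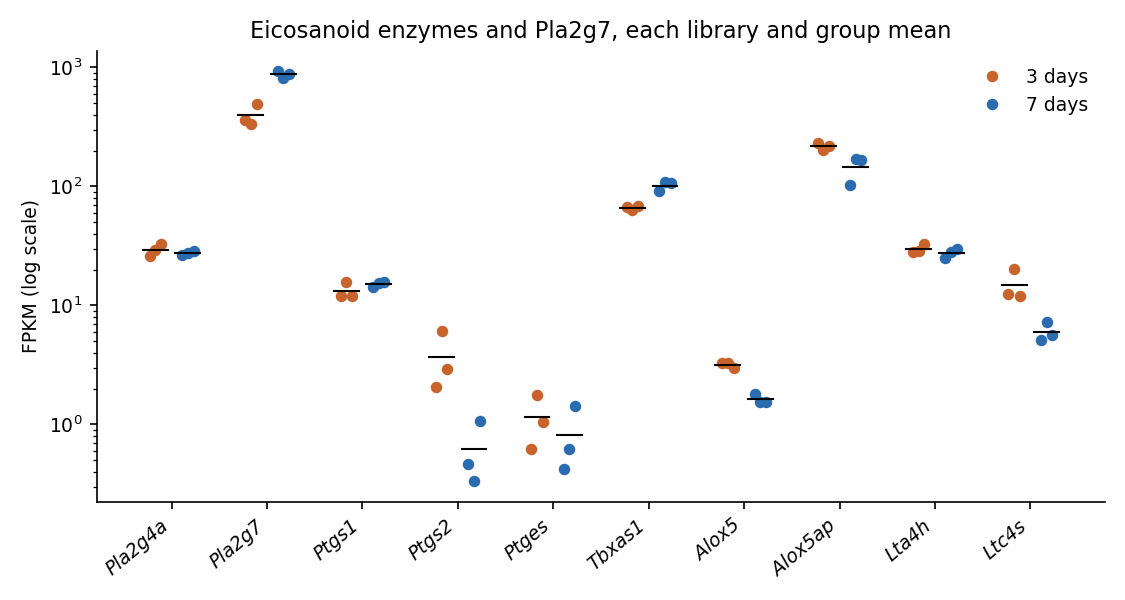
FPKM of the 10 members on a log axis, with 1 point for each library (3 at each time) and a black line at the mean of each group. The Pla2g7 and Tbxas1 points lie higher at 7 days, those of Ptgs2, Alox5, Alox5ap and Ltc4s lie lower, and the times overlap for the other 4.

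Stretches before transcript starts of both cyclooxygenase genes and of Alox5 are shown because only 1 of the cyclooxygenases passed the test and Alox5 begins the leukotriene branch. Each stretch holds the 250 bases before a RefSeq transcript start (build GRCm38.p6), 5′ to 3′ on the strand of the gene, with capitals for a match to a searched motif. They lie at chr2:36230176-36230425 (plus strand) for Ptgs1, within the RefSeq gene, which starts at 36216742, so that it precedes an internal transcript start, chr1:150099781-150100030 (plus strand) for Ptgs2 and chr6:116461179-116461428 (minus strand) for Alox5.
Ptgs1: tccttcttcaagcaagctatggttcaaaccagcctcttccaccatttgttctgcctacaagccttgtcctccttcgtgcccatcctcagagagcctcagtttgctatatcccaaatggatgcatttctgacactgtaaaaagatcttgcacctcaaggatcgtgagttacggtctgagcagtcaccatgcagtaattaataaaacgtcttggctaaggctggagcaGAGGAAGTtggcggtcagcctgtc
Ptgs2: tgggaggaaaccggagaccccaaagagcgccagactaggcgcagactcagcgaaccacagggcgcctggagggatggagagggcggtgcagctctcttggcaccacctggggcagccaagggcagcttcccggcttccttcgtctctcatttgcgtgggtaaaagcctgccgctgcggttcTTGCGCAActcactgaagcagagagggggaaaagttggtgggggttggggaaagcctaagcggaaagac
Alox5: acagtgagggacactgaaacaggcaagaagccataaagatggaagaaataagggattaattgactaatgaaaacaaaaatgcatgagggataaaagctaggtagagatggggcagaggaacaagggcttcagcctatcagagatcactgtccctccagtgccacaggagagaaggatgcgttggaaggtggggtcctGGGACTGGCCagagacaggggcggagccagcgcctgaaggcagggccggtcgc
RefSeq starts were found for 9 of the 10 members, and the stretches of 6 overlap no annotated exon on their strand. Searched on both strands were TATAAA (the core element bound by TBP), GAGGAAGT (PU.1), GGGA and CC with any 4 bases between them (NF-kB), TTGCNNAA (C/EBP), TGACGTCA (cAMP response element), TGANTCA (AP-1), CACGTG (E-box) and AGGTCA repeated with any 1 base between the copies (PPAR). The Ptgs1 stretch holds the PU.1 letters at -24 to -17, counted back from the transcript start, which 2.44% of 32817 stretches of this length also hold. The Ptgs2 stretch holds the C/EBP letters at -69 to -62 (9.57% of all stretches) and the Alox5 stretch the NF-kB letters at -53 to -44 (17.6% of all stretches). Of the stretches not shown, that of Ptges holds no match. That of Lta4h holds the NF-kB letters at -128 to -119 and at -16 to -7. Pla2g4a has 2 stretches, 1 without a match and 1 with the TATA letters at -200 to -195. The capitals mark letters that match and are not shown to be bound, since binding was not measured here.

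The phospholipase of the opening step did not pass the test. Pla2g4a (mm10 chromosome 1, 149829622 to 149961575) measured 26.1, 29.3 and 32.7 FPKM at 3 days and 26.4, 27.7 and 28.7 FPKM at 7 days. The times overlapped, and the log2 difference of -0.080 had a 95% interval from -0.34 to 0.17 (limma adjusted p = 0.571).

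Of the cyclooxygenases, Ptgs2 fell and Ptgs1 did not pass the test. Ptgs2, the inducible isoform (chromosome 1, 150100160 to 150106668), measured 2.07, 6.13 and 2.93 FPKM at 3 days and 0.465, 0.334 and 1.07 FPKM at 7 days. Every 7-day library lay below every 3-day library, and the mean fell from 3.71 ± 2.14 to 0.623 ± 0.392 FPKM (SD, n = 3), a level 5.96-fold lower. The log2 change of -1.47 ± 0.33 (SE) on log2(FPKM + 1), a scale that understates the change of low genes, had a limma adjusted p of 0.0128. Without 7-day replicate 2 the adjusted p was 0.0505, and the call was lost. Ptgs1, the constitutive isoform (chromosome 2, 36230453 to 36249943), measured 12.1, 15.6 and 11.9 FPKM at 3 days and 14.4, 15.5 and 15.7 FPKM at 7 days. Its times overlapped, and the log2 difference of 0.20 had an interval from -0.11 to 0.50 (limma adjusted p = 0.256). The overlap came from 3-day replicate 2. Without that library the Ptgs1 difference was 0.32 and just missed a call (limma adjusted p = 0.0540). Ptgs2 stood at 17.1%, 39.2% and 24.7% of the Ptgs1 level at 3 days and at 3.23%, 2.16% and 6.82% at 7 days. The log2 ratio of Ptgs2 to Ptgs1 was -1.68 ± 0.44 at 3 days and -3.34 ± 0.31 at 7 days (SD, n = 3). The exact two-sided permutation p for its change of -1.67 was 0.1, the smallest that 3 against 3 libraries can give.

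Markers of cells other than macrophages are given beside Ptgs2. The gene was highest in 3-day replicate 2, which also had the highest sums of 12 neuron markers (474 FPKM beside 204 and 216 in the other 3-day libraries), of 9 astrocyte markers (617 beside 221 and 277) and of 6 fibroblast and pericyte markers (264 beside 105 and 139). Its sums of 9 oligodendrocyte markers (646 beside 319 and 406) and 8 endothelial markers (70.7 beside 43.5 and 47.6) were the highest at 3 days too. Its macrophage and platelet sums were the lowest at 3 days. Ptgs1, Ltc4s, Ptges and, narrowly, Alox5 also had their highest 3-day value in that library. Without that library Ptgs2 was still called, with a log2 change of -1.12 (limma adjusted p = 0.0213). All 12 neuron markers and 6 of 9 astrocyte markers were called lower at 7 days, when their sums ran from 70.9 to 85.5 and from 117 to 147 FPKM. The fibroblast and pericyte sums, at 99.1 to 180.5 FPKM at 7 days, overlapped those at 3 days, with 4 of 6 markers called lower and Col1a1 and Col1a2 not called. The 3 genes with the pattern most like that of Ptgs2, among 5766 genes with a mean of 10 FPKM or more, were Dpysl3, Gpm6b and Cpe. Their root mean square difference from Ptgs2, with each gene centred on its mean of log2(FPKM + 1) over the 6 libraries, was 0.11, 0.13 and 0.14. That scale compresses the low values of Ptgs2: the mean FPKM of these genes was 2.96-, 2.89- and 3.07-fold lower at 7 days, beside 5.96-fold for Ptgs2. Dpysl3 reached a mean of 10 FPKM over the 6 libraries through its 3-day level, 19.9 FPKM on average beside 6.75 FPKM at 7 days. The part of other cells in the Ptgs2 values was not tested.

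The enzymes that use prostaglandin H2 stood at very different levels. Tbxas1, the thromboxane synthase (chromosome 6, 38918551 to 39085204), measured 66.7, 63.5 and 68.7 FPKM at 3 days and 91.0, 108 and 106 FPKM at 7 days. It rose from 66.3 ± 2.66 to 102 ± 9.21 FPKM (SD, n = 3), which is 1.53-fold and larger than the spread at either time (log2 0.61 ± 0.10, SE; limma adjusted p = 0.00405). Ptges, the prostaglandin E synthase (chromosome 2, 30892027 to 30903352), measured 0.621, 1.77 and 1.04 FPKM at 3 days and 0.42, 0.625 and 1.42 FPKM at 7 days. Its times overlapped at a level near 1 FPKM, and the log2 difference was -0.24 with an interval from -0.89 to 0.41 (limma adjusted p = 0.510). With quantile normalization the Ptges difference turned to 0.32 (adjusted p = 0.308). Ptges stood at 0.93%, 2.79% and 1.52% of the Tbxas1 level at 3 days and at 0.462%, 0.579% and 1.34% at 7 days. These percentages overlapped between the times. With a pseudocount of 1 the change of the log2 ratio was -0.84 (exact permutation p = 0.1), and with one of 0.1 it was -1.09 (exact permutation p = 0.2). Platelets are also known to carry Ptgs1 and Tbxas1. Of 10 platelet markers 4 were tested, 3 of them fell and none rose, and their sum was 184 to 326 FPKM at 3 days and 81.1 to 94.7 FPKM at 7 days. Most of that sum was Pf4, which monocytes can express as well. The part of platelets in the Ptgs1 and Tbxas1 values was not tested.

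On the leukotriene branch the 3 members that could be tested all fell. Ltc4s, the leukotriene C4 synthase, measured 12.5, 20.1 and 12.01 FPKM at 3 days and 5.08, 7.24 and 5.69 FPKM at 7 days. The times did not overlap, and the mean fell from 14.9 ± 4.55 to 6.003 ± 1.11 FPKM (SD, n = 3), 2.48-fold lower (log2 -1.16 ± 0.22, SE; limma adjusted p = 0.00640). In the authors' deposited table its q-value was 0.0618. The table gives Ltc4s the interval chromosome 11, 50211029 to 50238537, which overlaps that of the neighbouring gene Mgat4b. The RefSeq gene of Ltc4s spans only 50236461 to 50238532. Mgat4b stood at 10.7 ± 3.15 FPKM at the early time and 12.2 ± 2.40 FPKM at the late one (SD, n = 3) and was not called (limma adjusted p = 0.510). In 3-day replicate 2 Ltc4s was at its highest and Mgat4b at its lowest, 7.12 FPKM, and without that library Ltc4s kept its call with a log2 change of -0.93 (limma adjusted p = 0.0120).

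Alox5, the 5-lipoxygenase, measured 3.25, 3.28 and 2.98 FPKM at 3 days and 1.82, 1.53 and 1.53 FPKM at 7 days. The libraries of a time lay close together, and the mean fell from 3.17 ± 0.167 to 1.63 ± 0.166 FPKM (SD, n = 3), 1.95-fold lower (log2 -0.67 ± 0.15, SE; limma adjusted p = 0.0116). With quantile normalization the log2 change was -0.22 and not called (adjusted p = 0.338). The interval given for Alox5, chromosome 6, 116410074 to 116423846, covers 26.9% of the RefSeq gene, at its 3′ end, so its FPKM may not stand for the whole transcript. Alox5ap, the activating partner of Alox5 (chromosome 5, 149264701 to 149288667), stood far above it, at 230, 201 and 219 FPKM at 3 days and 102, 169 and 166 FPKM at 7 days. Its mean fell from 217 ± 14.4 to 146 ± 37.8 FPKM (SD, n = 3), 1.49-fold lower, with 7-day replicate 1 below the other 7-day libraries (log2 -0.60 ± 0.20, SE; limma adjusted p = 0.0460). That call was the weakest of the 6: it was lost whichever single library was left out, with an adjusted p from 0.0530 to 0.111, and without 7-day replicate 1 the log2 change was -0.37. It was also lost with median centring (adjusted p = 0.0589). Alox5 stood between 0.906% and 1.78% of the Alox5ap level in the 6 libraries. With a pseudocount of 1 the change of the log2 ratio was -0.065 (exact permutation p = 1). Its sign turned when 3-day replicate 2 or 7-day replicate 2 or 3 was left out. With a pseudocount of 0.1, which weighs the low Alox5 values more, the change was -0.32 (exact permutation p = 0.4).

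Lta4h, the leukotriene A4 hydrolase (chromosome 10, 93453386 to 93479346), could not be tested, because its library values do not match the means deposited beside them. The libraries were given as 28.1, 28.4 and 33.0 FPKM at 3 days and 25.2, 28.3 and 29.8 FPKM at 7 days, and the times overlapped. The authors' deposited table lists means of 63.4 and 69.3 FPKM for them and a log2 change of 0.31 (q = 0.308). With the row kept in the fit, the library values gave -0.10 ± 0.11 (SE; limma adjusted p = 0.488), so the sources differ in sign and neither was called.

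Leukotriene enzymes are known from neutrophils, monocytes and mast cells, whose markers moved unevenly. The summed FPKM of 9 neutrophil markers was 77.2 to 84.1 at 3 days and 78.0 to 94.2 at 7 days, with 2 markers called higher and 3 lower, and Mpo was listed at 0 in all 7-day libraries. Mmp8 and S100a8, the markers called higher, made up most of the 7-day sum, at 43.5 and 28.1 FPKM. The other 7 had lower means at 7 days, among them Lcn2 (10.1-fold), Cxcr2 (4.21-fold) and S100a9 (2.62-fold), and the median log2 change of the list was -0.77. The 8 tested monocyte markers summed to 1149 to 1277 FPKM at 3 days and 314 to 399.8 FPKM at 7 days, and 6 of them fell. Of 10 mast cell and basophil markers 2 were tested, Kit and Hdc, and both fell, from a sum of 3.91 to 5.37 FPKM to one of 0.873 to 1.44 FPKM. Most of that sum was Kit, and Hdc was at most 1.24 FPKM. Cpa3, Mcpt4, Cma1, Tpsb2, Tpsab1, Ms4a2, Fcer1a and Mcpt8 were not tested. The part of these cells in the leukotriene values was not tested.

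**Figure D2:**
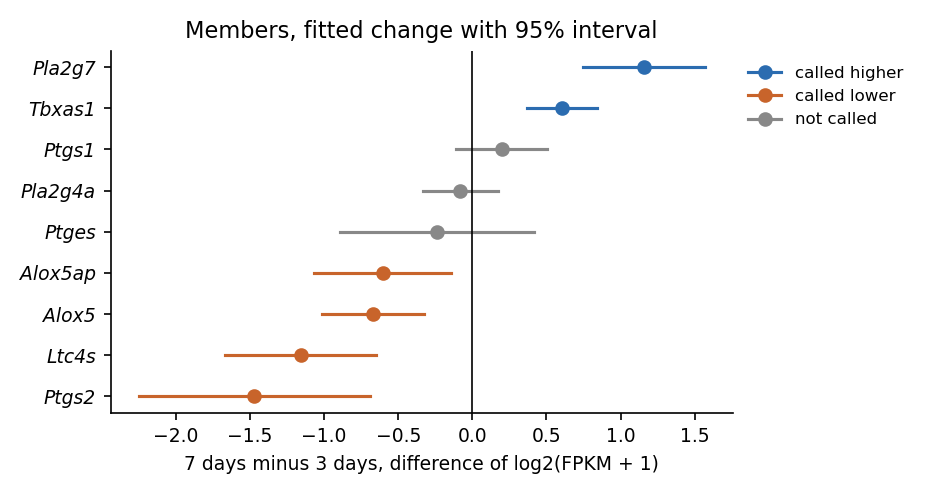
Fitted difference of log2(FPKM + 1), 7 days minus 3 days, for the 9 tested members, with its 95% interval from limma (3 libraries at each time). Pla2g7 has the largest rise (1.16) and Ptgs2 the largest fall (-1.47), while the intervals of Ptgs1, Pla2g4a and Ptges include 0.

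Pla2g7 was the most abundant member at both times. It measured 360, 336 and 497 FPKM at 3 days and 929, 814 and 888 FPKM at 7 days (chromosome 17, 43568173 to 43613364). The lowest 7-day library thus stood 1.64-fold above the highest 3-day library. Among the 3-day libraries it was highest in replicate 3, whose 50 most abundant genes held 27.6% of the FPKM, against 14.6% and 14.9% in the others. Without that library its log2 change was 1.33 (limma adjusted p = 0.00409). Among all tested genes its level lay at percentile 99.3 at 3 days and 99.8 at 7 days. Its fitted log2 change was 1.16 ± 0.18 (SE; limma adjusted p = 0.00287), and it kept its call under all 16 alternatives, with an adjusted p of 0.0150 at most. The 3 genes of 5766 with the pattern most like it were St8sia4, Ly9 and Ctsz, with a root mean square difference of 0.062, 0.068 and 0.093. Ctsz, a lysosomal cathepsin, went from 881 ± 129 to 1829 ± 148 FPKM and Ly9, a receptor of leukocytes, from 64.8 ± 10.5 to 154 ± 14.3 FPKM (SD, n = 3).

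The deposited intervals fall short of the RefSeq gene for Ptgs1 (46.6% covered) and Ptges (27.3%) as well. Those of Tbxas1 (75.3%), Ptgs2 (79.3%) and Lta4h (82.4%) do so to a lesser degree. Noncoding genes overlap the intervals of Tbxas1 (6 genes), Ltc4s (2), Alox5, Ptges and Pla2g7 (1 each). Whether counting used strand is not given, so reads of such genes cannot be told apart from those of the members.

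The make-up of the group shifted towards Pla2g7. Of the summed FPKM of the 9 tested members, Pla2g7 held 50.5%, 49.7% and 58.6% at 3 days and 79.4%, 71.2% and 73.2% at 7 days. Alox5ap held 32.2%, 29.7% and 25.8% at 3 days and 8.72%, 14.8% and 13.7% at 7 days, so that neither share overlapped between the times. Tbxas1 held between 7.78% and 9.43% in all 6 libraries. Shares of 1 sum depend on each other, so the rise of Pla2g7 lowers the other shares by itself. In FPKM, Alox5ap fell 1.49-fold and Tbxas1 rose 1.53-fold.

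**Figure D3:**
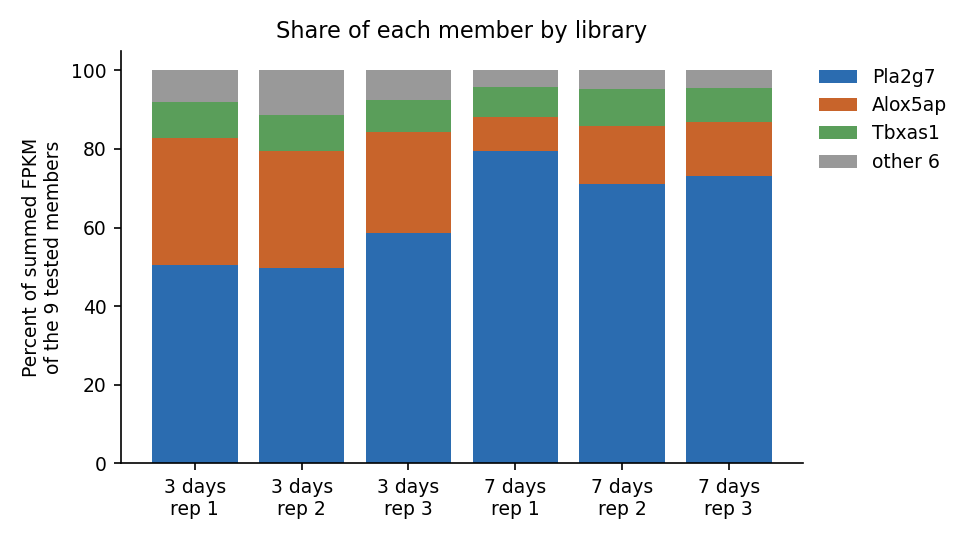
Percent of the summed FPKM of the 9 tested members held by Pla2g7, Alox5ap, Tbxas1 and the other 6, with 1 stacked bar for each library. The Pla2g7 share is at most 58.6% at 3 days and at least 71.2% at 7 days.

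The order of the levels at 3 days was Pla2g7, Alox5ap, Tbxas1, Pla2g4a, Ltc4s, Ptgs1, Ptgs2, Alox5 and Ptges. Libraries overlapped only between the neighbours Ltc4s and Ptgs1 and between Ptgs2 and Alox5. At 7 days the order was Pla2g7, Alox5ap, Tbxas1, Pla2g4a, Ptgs1, Ltc4s, Alox5, Ptges and Ptgs2, and the neighbours Alox5ap and Tbxas1, and Ptges and Ptgs2, overlapped. Ltc4s and Ptgs2 thus moved down in the order. Ptgs2 lay at percentile 30.9 of all tested genes at 3 days and 16.4 at 7 days, and Ltc4s at 64.5 and 44.3.

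The rest of the pathway was read from 8 lists with 88 genes, of which 53 were tested, 16 rose, 7 fell and 30 were not called. Over all tested genes 18.8% rose and 20.3% fell. The median log2 change of the 53 was 0.10. Without 7-day replicate 2 the number higher was 9. The share that rose depends on level. Of the 8067 genes with a mean of 5 FPKM or more, 2305 rose and 1204 fell, with a median log2 change of 0.16. Under that filter 16 of the other pathway genes rose and 2 fell. Lpcat4, Slco3a1, Ltb4r1, Fpr1 and Fpr2, called lower without the filter, were left out by it as untested. The number of the 53 genes that passed the filter was not counted, so no share is given.

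On the list for platelet-activating factor and phospholipid remodelling, Lpcat2, Ptafr and Pafah1b2 rose and Lpcat4 fell. The other 5 of the 9 genes tested were not called, and Lpcat1 was set aside. Lpcat2, an acyltransferase that makes platelet-activating factor, measured 25.8, 27.2 and 29.3 FPKM at 3 days and 56.5, 63.3 and 62.7 FPKM at 7 days (log2 1.12 ± 0.10, SE; limma adjusted p = 4.72e-04). Ptafr, the receptor for platelet-activating factor, measured 67.3, 57.4 and 67.0 FPKM at 3 days and 95.4, 97.5 and 103 FPKM at 7 days (log2 0.62 ± 0.10; adjusted p = 0.00356). Both kept the times apart. Lpcat4, a related acyltransferase, went from 1.75 ± 0.816 to 0.584 ± 0.0873 FPKM and lost its call under 10 of 15 alternatives (adjusted p up to 0.559). Pafah1b2, a subunit of the intracellular acetylhydrolase, rose from 33.1 ± 0.933 to 42.8 ± 3.80 FPKM (SD, n = 3). Among the other phospholipases, 2 of 7 rose and none fell: the lysosomal Pla2g15, from 35.6 ± 2.85 to 69.9 ± 4.22 FPKM, and Pla2g16, from 41.1 ± 10.8 to 77.4 ± 4.82 FPKM (SD, n = 3).

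Of the other prostanoid synthases, 4 of 8 rose and 1 fell. The largest rise was that of Hpgds, the haematopoietic prostaglandin D synthase, which measured 31.5, 32.1 and 34.6 FPKM at 3 days and 155, 116 and 128 FPKM at 7 days. This was 4.07-fold in mean FPKM (log2 1.98 ± 0.12, SE; limma adjusted p = 1.52e-04), and every 7-day library was above 100 FPKM. Hpgds, at 32.7 FPKM on average, was below Tbxas1 in all 3-day libraries and, at 133 FPKM, above it in all 7-day libraries. Akr1b3, an aldose reductase that can form prostaglandin F2alpha, rose from 41.6 ± 5.62 to 65.97 ± 3.37 FPKM (SD, n = 3). Fam213b, a prostamide and prostaglandin F synthase, went from 6.66 ± 1.48 to 10.6 ± 1.58 FPKM and lost its call without 3-day replicate 1 or 3 or 7-day replicate 2 or 3 (adjusted p up to 0.108). Cbr1, a carbonyl reductase, rose from 10.8 ± 0.534 to 15.6 ± 1.03 FPKM, and Ptges3, a cochaperone also known as cytosolic prostaglandin E synthase, fell from 65.7 ± 5.57 to 52.5 ± 2.58 FPKM.

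Of the 3 microsomal glutathione transferases on the leukotriene list, Mgst1 and Mgst2 were called higher and Mgst3 was not called. Mgst1, a microsomal glutathione transferase, rose from 89.1 ± 7.84 to 228 ± 22.7 FPKM (log2 1.35 ± 0.12, SE; limma adjusted p = 4.80e-04). Its relative Mgst2, which can also form leukotriene C4, went from 4.65 ± 1.25 to 8.84 ± 2.72 FPKM and lost its call under 5 of 16 alternatives (adjusted p up to 0.117). Mgst3, another relative, was not called (log2 0.10, adjusted p = 0.677), and its times overlapped. Of the 6 genes tested on that list, 2 rose and none fell. Of the other lipoxygenases only Alox12 had a row, at 0 to 0.684 FPKM at 3 days and listed at 0 in all 7-day libraries, and it was not called.

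Genes that break down or carry eicosanoids were mixed, with 3 of 10 higher and 2 lower. Ptgr2, a reductase of prostaglandin metabolites, rose from 22.8 ± 0.98 to 45.2 ± 1.78 FPKM and Slco3a1, an organic anion carrier, fell from 6.13 ± 1.46 to 1.39 ± 0.124 FPKM (SD, n = 3). The epoxide hydrolase Ephx1 went from 7.28 ± 4.36 to 14.0 ± 1.28 FPKM and lost its call under 6 of 16 alternatives (adjusted p up to 0.138). Cyp4f18, a hydroxylase of leukotriene B4, rose from 33.8 ± 2.84 to 44.8 ± 4.71 FPKM. Abcc1, an exporter of leukotriene C4, fell from 50.2 ± 9.74 to 30.4 ± 2.50 FPKM. Hpgd, the main prostaglandin dehydrogenase, measured 7.46, 19.0 and 6.96 FPKM at 3 days and 8.80 to 13.2 FPKM at 7 days. Its times overlapped, and its log2 difference was 0.060, with an interval from -0.76 to 0.88 (limma adjusted p = 0.899).

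Receptors for the products moved in both directions. Ltb4r1, the high-affinity receptor for leukotriene B4, measured 2.79, 3.00 and 4.31 FPKM at 3 days and 0.0928, 0.261 and 0.184 FPKM at 7 days. Its mean FPKM was 18.8-fold lower at 7 days (log2 -1.87 ± 0.19 on log2(FPKM + 1), SE; limma adjusted p = 7.35e-04). Fpr2, a receptor for formyl peptides and lipid mediators, fell from 7.04 ± 0.967 to 1.47 ± 0.393 FPKM (SD, n = 3), and its relative Fpr1 from 3.17 ± 0.432 to 1.47 ± 0.246 FPKM. Cysltr2, a receptor for cysteinyl leukotrienes, rose from 3.84 ± 0.894 to 8.11 ± 2.00 FPKM, and its adjusted p was 0.0562 without 7-day replicate 2. Cysltr1, the other such receptor, measured 11.6 ± 1.81 and 10.97 ± 1.32 FPKM and was not called (log2 interval -0.43 to 0.28). Of the 7 leukotriene and resolvin receptors tested, 1 rose and 3 fell. Of 5 prostanoid receptors, Ptger4, a receptor for prostaglandin E2, rose from 4.54 ± 0.502 to 7.23 ± 0.398 FPKM, and its adjusted p was 0.0516 without 7-day replicate 2 and 0.0531 without 7-day replicate 3. Ptger2, another receptor for that product, measured 4.15 ± 0.894 and 3.29 ± 0.225 FPKM (log2 interval -0.66 to 0.16).

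**Figure D4:**
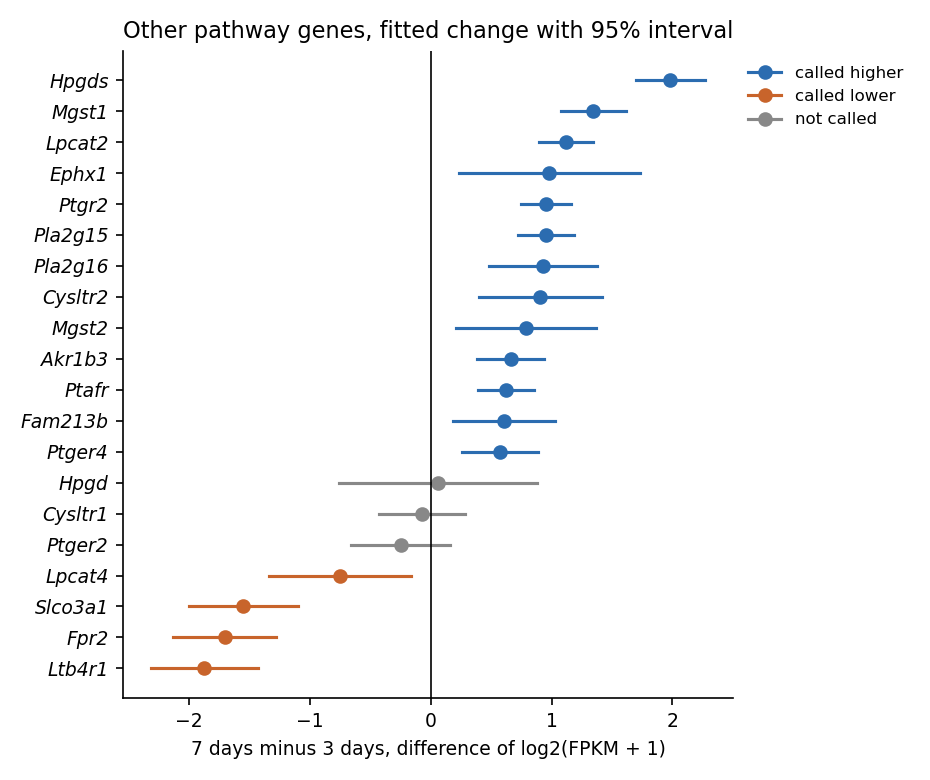
Fitted difference of log2(FPKM + 1), 7 days minus 3 days, with its 95% interval from limma, for 20 named genes of the other pathway lists (3 libraries at each time). Hpgds has the largest rise (1.98) and Ltb4r1 the largest fall (-1.87).

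The libraries as a whole differed in their cell markers. Genes at 1 FPKM or more numbered 11147 to 11675 at 3 days and 10248 to 10402 at 7 days, of 13042. Total read counts are unknown. Steps between low FPKM values gave relative depths of 0.939 and 0.758 for 3-day replicates 2 and 3 against replicate 1. For 7-day replicates 2 and 3 against replicate 1 they were 1.01 and 1.09. These depths assume that FPKM was computed per library. Each rests on the most frequent ratio between 2 libraries, held by only 43 to 62 genes of the 1167 to 1809 compared. Macrophage markers were present, with 7 of 12 tested and a sum of 1303 to 1490 FPKM at 3 days and 1373 to 1410 FPKM at 7 days, and 3 rose and 2 fell. Of 7 microglia markers tested 6 rose, and the sum of the 7 was 149 to 184 FPKM at 3 days and 325 to 355 FPKM at 7 days. Most of the 7-day sum was Cx3cr1, Olfml3 and Fcrls, with means of 72.8, 96.4 and 104 FPKM. Host cells, as said above, carry no tag. The defining markers P2ry12 and Tmem119 stood at 10.5 to 19.4 and 12.6 to 14.4 FPKM at 3 days and at 21.96 to 29.7 and 22.5 to 24.8 FPKM at 7 days. Sall1 went the other way, from a mean of 0.845 to 0.167 FPKM. It was at most 1.22 FPKM in all libraries and was not called. The 8 endothelial markers tested summed to 43.5 to 70.7 FPKM at 3 days and to 26.8 to 31.6 FPKM at 7 days. Of these markers 6 were called lower and 1, Flt1, higher, from a mean of 3.36 to 12.4 FPKM. Kdr was not called, with means of 13.7 and 10.9 FPKM, and with Flt1 it made up most of the 7-day sum. Pecam1, Tek, Esam and Tie1 had 7-day means of 0.273, 0.573, 0.604 and 0.171 FPKM. The part of these cells in the members' values was not tested.

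**Figure D5:**
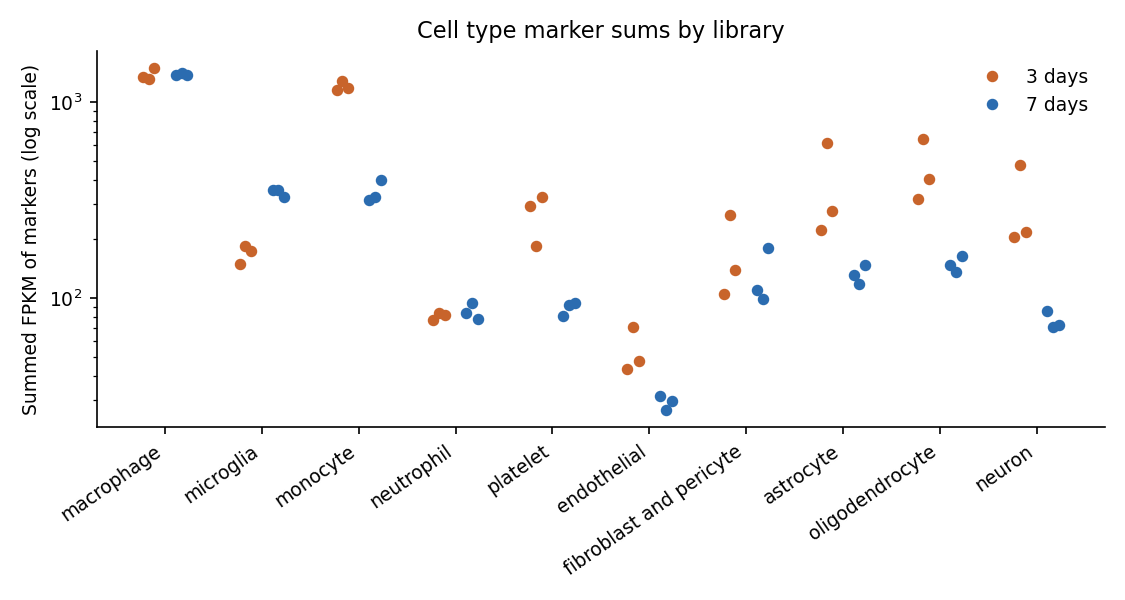
Summed FPKM of the tested markers of 10 cell types on a log axis, with 1 point for each library (3 at each time). Microglia sums lie higher at 7 days, macrophage and neutrophil sums overlap, and monocyte, platelet, endothelial, astrocyte, oligodendrocyte and neuron sums lie lower at 7 days.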

How the data were processed

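Libraries were made with the ScriptSeq v2 kit from RiboTag immunoprecipitates, per the labels' protocols. TopHat2 2.0.12, Cufflinks 2.2, Cuffdiff 2.2.1 and build mm10 are named in the submitters' processing notes, without role or order. Per the file headers, the deposited tables (one unfiltered, one filtered by a rule not given) list FPKM for each library, the mean FPKM of each time, a log2 fold change, a test statistic (a score), a p-value and a q-value. Scaling between libraries is not stated, nor whether strand was used in counting.

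Of 13960 rows in the unfiltered table, 918 were set aside: 838 have library values over 1% away from the mean listed beside them, 45 were not marked OK for testing, 14 hold a 0 beside 100 FPKM or more, and 32 repeat a symbol, and some meet several of these. The other 13042 were tested on log2(FPKM + 1) with limma 3.58.1 (mean-dependent prior variance, R 4.3.3), two-sided. Python 3.11.15 with pandas 2.3.3 did the rest. The fit was tested on simulated data.

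Members, lists and tests were chosen with earlier results of these data known. Named are all members, up to 3 called genes of each pathway list with the largest change and a mean of 1 FPKM or more, and Ptger2, Ptger4, Ltb4r1, Cysltr1 and Hpgd always. Similar patterns were taken for the called members with the largest rise and fall. Genes named beside another result (Mgat4b, Alox12, Pafah1b2, Cbr1, Ptges3, Cyp4f18, Abcc1, Fpr1, markers) were chosen after their values were seen. Intervals of gene positions are the table's, and whether its starts count from 0 or 1 is not stated. Alternatives changed the pseudocount, scaling, filter, table, prior, rows set aside, block or 1 library at a time. One marker gene is not reported here and is left out of its list's sums and counts.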

Additional observations from a re-analysis of the deposited data

How the results depend on the processing

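Of the 6 called members, Pla2g7, Tbxas1 and Ltc4s kept their call under all 16 alternatives. Ptgs2 and Alox5 each lost it under 1 of 15 and Alox5ap under 9 of 16. Ptges, not called, turned sign with quantile normalization (0.32). Members called higher numbered 2 throughout. Members called lower numbered 4, 2 with genes at 5 FPKM or more, which leaves out Ptgs2 and Alox5 as untested, and 2 to 3 without 1 library. Other pathway genes called higher numbered 16 and, without 1 library, 9 to 17. Those called lower numbered 7, and 5 to 8 without 1 library. With genes at 5 FPKM or more they numbered 2, which leaves out Lpcat4, Slco3a1, Ltb4r1, Fpr1 and Fpr2 as untested. The change of the Ptgs2 to Ptgs1 ratio was -2.60 with a pseudocount of 0.1, which weighs low values more. The Alox5 to Alox5ap change ran from -0.35 to 0.086 without 1 library, turning to 0.0073 without 3-day replicate 2, 0.086 without 7-day replicate 2 and 0.073 without 7-day replicate 3. Uncalled genes near 0 turned as well: Cysltr1 to 0.020 without 7-day replicate 3 (range -0.20 to 0.020), Ptger2 to 0.061 with quantile normalization, and Hpgd (range -0.18 to 0.49) to -0.13, -0.18 and -0.09 without 3-day replicates 1 and 3 and 7-day replicate 2. Calls over all genes were 2453 higher and 2645 lower, 2317 and 1809 after quantile normalization, 2305 and 1204 above a minimum mean of 5 FPKM, 2388 and 1433 in the filtered table, and 1572 and 1697 without 7-day replicate 2. Where no cause is given, the cause was not tested.

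Deviations of libraries with the same replicate number had an r of 0.12, 0.0096 and 0.011 across genes. Between libraries with different numbers r ran from -0.063 to 0.048. Such values cannot decide whether the libraries pair. Nothing in the labels says that they do, so the numbers were not taken as pairs in the main fit. With the replicate number as a block, 2 members were higher and 3 lower, since Alox5ap had an adjusted p of 0.0513. With the block, 16 other pathway genes were called higher, without Mgst2 (adjusted p = 0.063), and 5 lower. FPKM cannot be turned back into reads, so no counting interval is given for the low members Ptgs2, Alox5 and Ptges.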
